A study of Mus musculus with 9 samples.

Results

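The genes described here are Mbp, Mobp, Mog, Mag, Cnp, Mal, Opalin, Cldn11 and Ermn, 9 genes of mature oligodendrocytes and of the myelin sheath, measured in nuclei that had been sorted as neuronal. They were taken as a list of known myelin and oligodendrocyte genes and not by a cut on measured values, though earlier results of these data were known. They are read as a measure of how pure the sort was, without an unsorted fraction to set them against. All 9 were found by Ensembl identifier among the 48709 genes of the exon count files, and all 9 had counts in every library.

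Oligodendrocytes wrap axons with myelin, a stack of membrane layers that is held together by a small set of abundant structural proteins. The messages of these proteins are among the most abundant of the oligodendrocyte and can also be carried into its processes. Exon counts pool all transcripts of a gene, 16 annotated ones for Mbp, and do not tell which cell type made them. In a sort for NeuN, a nuclear protein of most mature neurons, oligodendrocyte nuclei are meant to be left behind, so that myelin messages in the sorted fraction are read against the neuronal ones.

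Nuclei were isolated from frozen hippocampi of 6-month-old mice, stained with a fluorescent antibody to NeuN and sorted by flow cytometry. The 3 groups had 3 mice each. WT mice were C57BL/6J and drank tap water as vehicle. Tg4-42 mice were homozygous on the C57BL/6J background and expressed human Aβ4-42, the amyloid peptide without its first residues, behind the signal peptide of murine thyrotropin-releasing hormone and under the murine Thy1 promoter, which is active in neurons. They received either tap water (Tg4-42 vehicle) or 300 mg/l caffeine in the drinking water (Tg4-42 caffeine) for 4 months from 2 months of age. There was no caffeine-treated WT group among the libraries used here. Male and female animals entered the study, and the labels do not give the sex of the mice sequenced. The study's methods describe dissected, frozen hippocampi for male Tg4-42 mice and fixed hemispheres for female ones. They give no such split for WT mice. The labels number each library as a separate animal but name 6 animals per group for the isolation of nuclei, where the study's methods name 3, and do not say whether tissue was pooled.

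Between 9342945 and 16376922 reads per library were counted on genes. Levels are given as CPM, counts divided by the library total after TMM scaling, and 3 counts corresponded to 0.190 to 0.325 CPM, a floor that covers counting error only. The 9 genes held between 14 counts (Cldn11) and 2571 counts (Mbp) per library, and all passed the filter on low counts that 17361 genes passed. By the library names, lane 6 held mice 1 and 2 and lane 7 held mouse 3 of each group, so that an effect of lane and the values of mouse 3 cannot be told apart. The correlation of log CPM between mice of a group was 0.978 to 0.985 across genes, and no library stood apart by it. In bulk samples of this kind, fewer nuclei of a cell type and less RNA per nucleus cannot be told apart.

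In the sorted nuclei the neuron markers summed far above the oligodendrocyte genes listed here. The size of this gap depends on the genes chosen, and no unsorted library was among those used here. The 14 neuron markers, led by Syt1 and Snap25 of the synaptic release machinery and the vesicular glutamate transporter Slc17a7, summed to 7844 to 10670 CPM per library. A list of 37 other mature oligodendrocyte and myelin genes summed to 1061 to 1375 CPM in WT, 1118 to 1464 CPM in Tg4-42 vehicle and 774.1 to 941.5 CPM in Tg4-42 caffeine mice. By this sum all caffeine mice lay below all mice of both vehicle groups. Omg, at 384.2 CPM on average over all mice, was the highest gene of the list. Which cells carried Omg was not tested, so the sum is not a level of oligodendrocyte messages alone. The 9 oligodendrocyte genes summed to 224.9, 276.7 and 305.8 CPM in WT mice 1, 2 and 3, to 242.9, 302.8 and 315.1 CPM in the Tg4-42 vehicle mice, and to 249.9, 207.3 and 184.9 CPM in the Tg4-42 caffeine mice. The caffeine mice thus held the lowest sums of the series in mice 2 and 3, while caffeine mouse 1 lay within the range of both vehicle groups. The fold between the highest and the lowest mouse was 1.70.

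As group means, the sum was 269.1 CPM ± 41.0 (SD, n = 3) in WT, 286.9 CPM ± 38.6 (SD, n = 3) in Tg4-42 vehicle and 214.0 CPM ± 33.0 (SD, n = 3) in Tg4-42 caffeine mice. The caffeine mean was 0.746 times that of Tg4-42 vehicle and 0.795 times that of WT, and the Tg4-42 vehicle mean was 1.07 times that of WT. The groups overlapped in every pairing. Spread between mice was 13.5% to 15.4% of the mean, and the counting error of the sums was 1.61% to 1.86%. In each group the mouse with the lowest sum also had the smallest library total, which was 12688394 counts in WT mouse 1, 9342945 counts in Tg4-42 vehicle mouse 1 and 12498081 counts in Tg4-42 caffeine mouse 3; the part of library size in the sum was not tested.

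Read per 1000 counts of the neuron markers, the 9 genes held 28.0 ± 3.95 counts (SD, n = 3) in WT, 29.4 ± 4.67 in Tg4-42 vehicle and 25.5 ± 1.81 in Tg4-42 caffeine mice. On this scale the caffeine mean was 0.869 times that of Tg4-42 vehicle, a smaller difference than on the CPM scale. The list of 37 other genes held 98.68 to 107.9 counts in caffeine, 113.3 to 143.6 in Tg4-42 vehicle and 112.5 to 142.5 in WT mice on this scale. The neuron markers themselves summed to 9590 CPM ± 142.1, 9819 CPM ± 877.1 and 8360 CPM ± 736.7 in the same order of groups. Syt1, at 3046, 3170 and 2332 CPM, and Snap25, at 2756, 2905 and 2475 CPM, made up most of these sums. This scale thus rests largely on them. Of the 14 neuron markers 9 were estimated lower and 5 higher in caffeine than in Tg4-42 vehicle mice.

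Other glial lists had lower sums in the caffeine mice too. The 13 astrocyte markers, led by the glutamate transporter Slc1a2 and the glycolytic enzyme Aldoc, summed to 503.9, 537.2 and 413.9 CPM on average in WT, Tg4-42 vehicle and Tg4-42 caffeine mice, with single mice between 361.7 and 598.4 CPM. Slc1a2 and Aldoc, at 252.4 and 118.9 CPM on average over all mice, made up most of this sum. Which cells carried them was not tested. The 12 microglia markers, among them the protease Ctss and the receptor Csf1r, summed to 77.1, 86.5 and 59.2 CPM. The caffeine mice (55.97 to 65.35 CPM) lay below all Tg4-42 vehicle mice (68.94 to 99.72 CPM) and overlapped with the WT mice (59.86 to 92.58 CPM). Per 1000 counts of the neuron markers, the caffeine mice (7.015 to 7.135 counts) overlapped with the Tg4-42 vehicle mice too (6.986 to 11.18 counts). The 10 precursor markers summed to 37.5, 41.7 and 33.3 CPM.

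Vascular signal was weak, with sums of the 11 endothelial and mural markers of 9.71, 9.93 and 7.61 CPM. The endothelial genes Cldn5, Flt1 and Cdh5 were without a count in 2, 3 and 7 of the 9 libraries. How far a change in the share of glial nuclei or RNA accounts for values of the 9 genes was not tested.

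**Figure D1:**
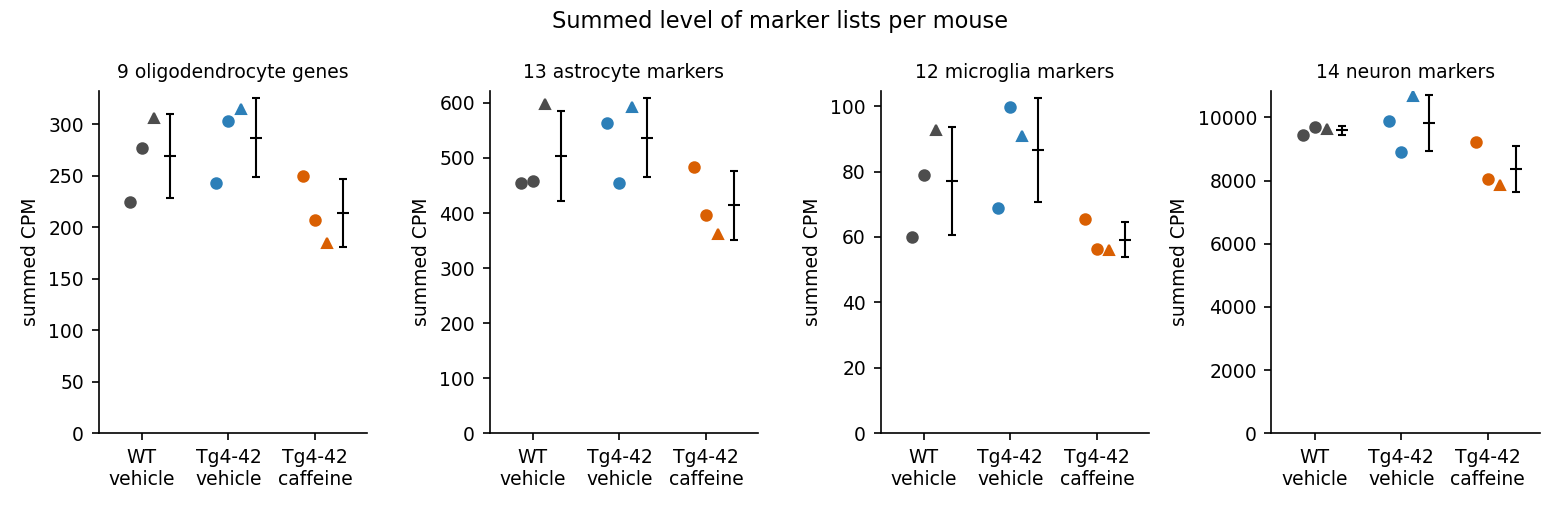
Summed level (CPM, y axis from 0) of 4 marker lists in each mouse, by group on the x axis. Circles are lane 6 mice, triangles lane 7 mice, and bars give the mean ± SD of 3 mice. The sums of the oligodendrocyte, astrocyte, microglia and neuron lists all had their lowest mean in the Tg4-42 caffeine mice. Of the 3 glial lists shown, only the microglia list separated the caffeine from the Tg4-42 vehicle mice without overlap. The list of 37 other mature oligodendrocyte and myelin genes, not shown here, separated them as well.

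Scaled by length, the 9 genes spanned from well above to well below the typical expressed gene. Mbp, whose product glues the inner faces of the myelin membrane together, was the highest at 16.9 CPM per kilobase of exon ± 2.24 (SD, n = 9 mice) and stood at the 80.9th percentile of tested genes on that scale. Cnp, a phosphodiesterase of uncompacted myelin, followed at 10.3 ± 2.51 and the 69.5th percentile. Mobp, a small basic protein of compact myelin, stood at 4.94 ± 1.60 CPM per kilobase, next to the median of tested genes of 4.93.

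The level per kilobase was 4.63 ± 1.75 for Mal, a membrane proteolipid of lipid rafts, and 3.93 ± 1.02 for Mog, a glycoprotein of the outermost myelin layer. It was 2.54 ± 0.741 for Mag, an adhesion protein facing the axon, and 2.09 ± 0.306 for Ermn, a cytoskeletal protein of late oligodendrocytes. Cldn11, the tight junction claudin of myelin, and Opalin, a transmembrane glycoprotein of oligodendrocytes, were the lowest at 1.15 ± 0.319 and 0.940 ± 0.208, the 22.0th and 19.0th percentiles. All of the lower-placed genes were still above the floor in every library.

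The order was firm at some steps and not at others. The ranges of all 8 pairs of neighbours in this order overlapped over the 9 mice. Within each mouse, however, Mbp was above Cnp, Cnp above Mobp, Mog above Mag and Ermn above Cldn11 in 9 of 9 mice. Mobp was above Mal in 5 of 9 mice, Mag above Ermn in 6 of 9, Mal above Mog in 7 of 9, and Cldn11 above Opalin in 7 of 9.

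The place of Mobp depended on the length used, because its exons merge to 6849 bases while its median transcript has 569. With the median transcript length, an alternative chosen after seeing the data, Mobp stood at 59.5 CPM per kilobase, second to Mbp at 79.4 and ahead of Cnp at 18.8.

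**Figure D2:**
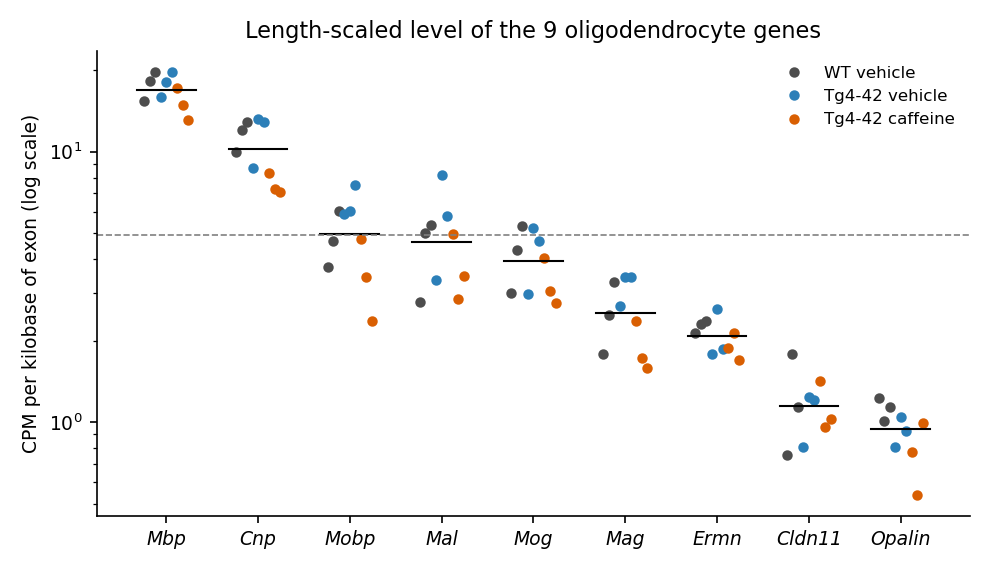
Level per kilobase of merged exon (CPM per kilobase, log axis) of the 9 genes in each of the 9 mice, ordered by mean. Points are mice coloured by group, black lines the means and the dashed line the median of the tested genes (4.93). Mbp and Cnp lay above that line in every mouse, and Mag, Ermn, Cldn11 and Opalin below it in every mouse.

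Mbp was measured at 130.3, 154.7 and 166.2 CPM in the WT mice, at 135.3, 152.7 and 166.9 CPM in the Tg4-42 vehicle mice, and at 144.9, 125.9 and 111.2 CPM in the Tg4-42 caffeine mice. Vehicle groups were alike in range, and caffeine mice 2 and 3 were below all other mice. Mbp made up 50.4% to 60.7% of the sum of the 9 genes in each library.

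Mobp stood at 25.6, 32.0 and 41.3 CPM in the WT mice, at 40.3, 41.5 and 51.6 CPM in the Tg4-42 vehicle mice and at 32.6, 23.5 and 16.1 CPM in the Tg4-42 caffeine mice. All caffeine mice were below all Tg4-42 vehicle mice, and WT mice overlapped with both. Its fold between the highest and the lowest mouse, 3.20, was the largest of the 9 genes.

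Mal, which sorts proteins to the myelin membrane, was measured at 7.69, 13.8 and 14.9 CPM in the WT mice, at 9.31, 22.8 and 16.1 CPM in the Tg4-42 vehicle mice and at 13.8, 7.95 and 9.61 CPM in the Tg4-42 caffeine mice. The groups overlapped, and Tg4-42 vehicle mouse 2 held the highest value.

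Cnp, the enzyme of the group, was found at 36.2, 43.9 and 46.9 CPM in the WT mice, at 31.6, 48.0 and 46.8 CPM in the Tg4-42 vehicle mice and at 30.4, 26.6 and 25.8 CPM in the Tg4-42 caffeine mice. The caffeine mice were below all mice of both vehicle groups, by a small gap to Tg4-42 vehicle mouse 1.

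Of the surface glycoproteins, Mag was found at 7.30, 10.1 and 13.4 CPM in WT, 10.9, 14.1 and 14.1 CPM in Tg4-42 vehicle and 9.63, 7.05 and 6.46 CPM in Tg4-42 caffeine mice. The Tg4-42 caffeine and vehicle mice did not overlap, and the WT mice spanned both. Mog stood at 5.10, 7.39 and 9.05 CPM, at 5.09, 8.92 and 7.95 CPM and at 6.91, 5.19 and 4.69 CPM in the same order of groups. The groups overlapped for Mog, since mouse 1 of each vehicle group was about as low as the caffeine mice.

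Opalin, Cldn11 and Ermn behaved less evenly. Opalin stood at 3.61, 2.97 and 3.36 CPM in WT, 2.38, 3.08 and 2.73 CPM in Tg4-42 vehicle and 2.28, 1.59 and 2.92 CPM in Tg4-42 caffeine mice, from 22 to 52 counts per library. Its caffeine mice lay below the WT mice with a small gap and overlapped with Tg4-42 vehicle. Cldn11, with 14 to 53 counts, ranged from 1.41 to 3.35 CPM, and its highest and lowest values were both in WT mice.

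Ermn ranged from 6.15 to 9.50 CPM, and the caffeine mice (6.15 to 7.74 CPM) were just below the WT mice (7.77 to 8.60 CPM). Its fold between the highest and the lowest mouse was 1.54, among the smallest of the 9 genes.

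**Figure D3:**
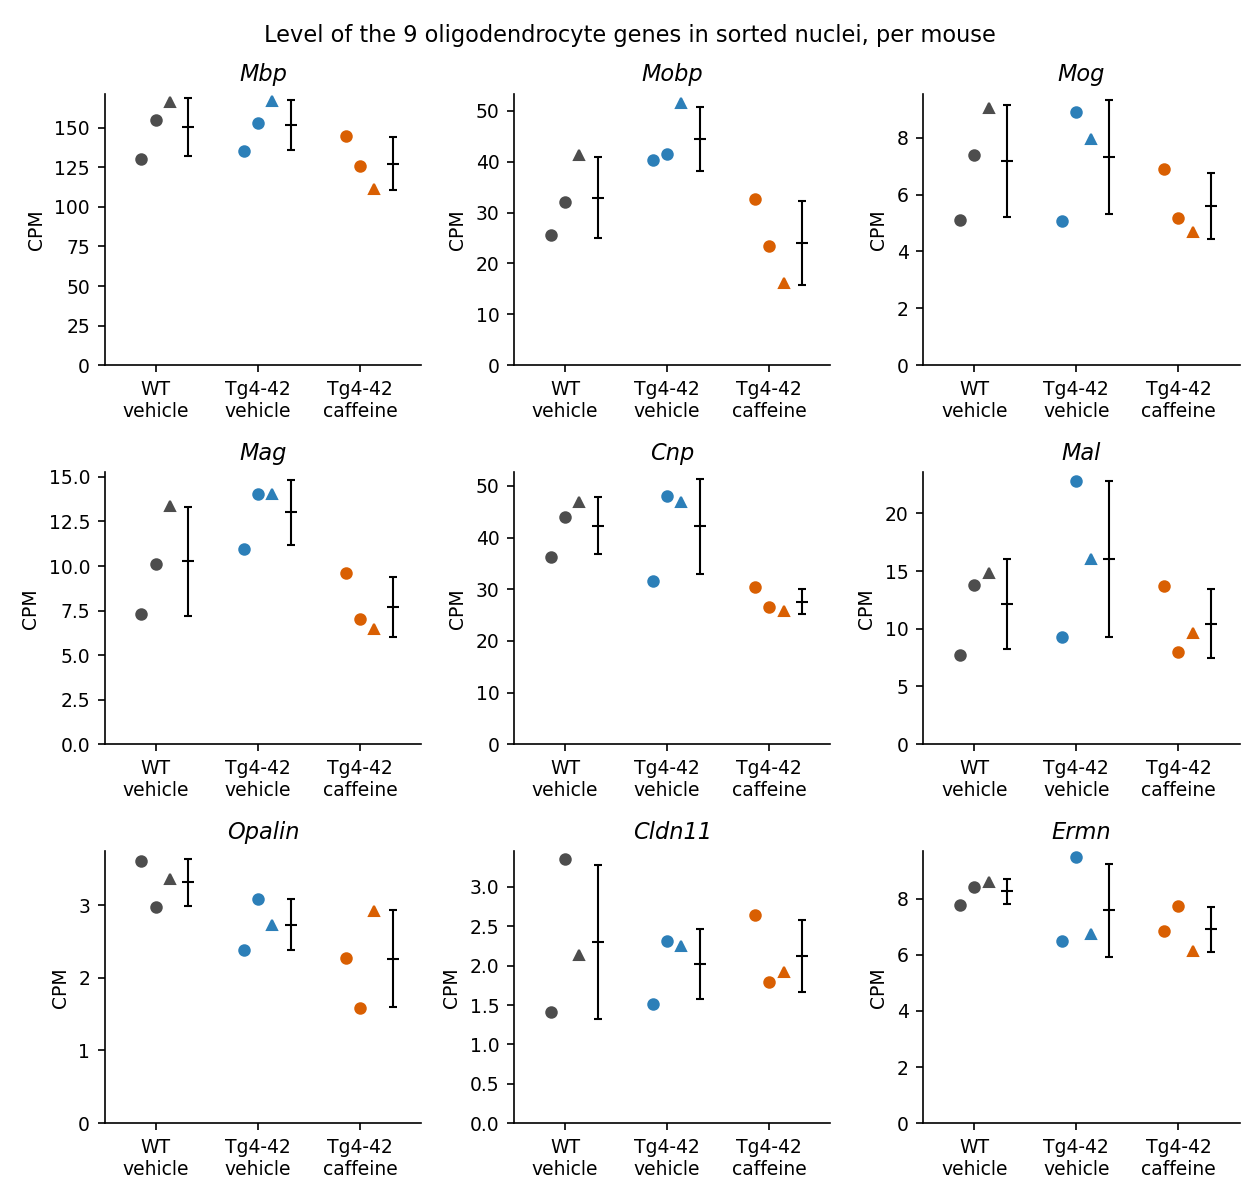
CPM (y axes from 0, a scale for each gene) of the 9 genes in single mice by group. Circles are lane 6 mice, triangles lane 7 mice, and bars the mean ± SD of 3 mice. Mobp, Mag and Cnp show 3 caffeine mice below the 3 Tg4-42 vehicle mice, and the other 6 genes overlap between these groups.

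Tg4-42 vehicle and WT vehicle mice were compared first, which asks whether the transgene alone goes with another level of oligodendrocyte messages in the sort. The 9 genes showed no common direction, with 4 estimated lower and 5 higher and a median log2 fold change of 0.01, beside 0.00 over all tested genes. The largest estimates were log2 fold changes of 0.43 ± 0.23 (SE) for Mobp, 0.41 ± 0.32 for Mal and 0.34 ± 0.23 for Mag, and Mbp and Cnp were at 0.01 ± 0.14 and 0.00 ± 0.16. None of the 9 had an adjusted p under 0.05 in the quasi-likelihood test of edgeR or in DESeq2 or limma-voom, and 0 had an unadjusted p under 0.05 in edgeR. Over all tested genes 0.0979% were called in this comparison, 1.09% were lower at an unadjusted p under 0.05, and 3.16% were lower in all Tg4-42 than in all WT mice, against 0 of 9.

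Tg4-42 caffeine and Tg4-42 vehicle mice were compared next, the comparison that addresses caffeine within the transgenic line. Of the 9 genes, 8 were estimated lower with caffeine, where 51.5% of all tested genes were, and the median log2 fold change of the 9 was -0.40, beside -0.01 over all tested genes. In edgeR 0 of 9 passed the adjusted threshold, beside 0.881% of all tested genes. At an unadjusted p under 0.05, 3 of 9 were lower and 0 higher, beside 9.82% of all tested genes that were lower, and the same 3 genes, Mobp, Mag and Cnp, were lower without overlap, beside 12.6% of all tested genes.

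Mobp had a log2 fold change of -0.88 ± 0.23 (SE), a level 0.542 times that of vehicle, with an edgeR adjusted p of 0.0851. Cnp stood at -0.62 ± 0.17 with an edgeR adjusted p of 0.0871, and Mag at -0.76 ± 0.24 with an edgeR adjusted p of 0.126. Each of the 3 was lower in 3 of 3 caffeine mice than in any Tg4-42 vehicle mouse, and p was 0.1 in a two-sided exact permutation test, the smallest that 3 against 3 mice allow.

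The call for these 3 genes depended on the tool. DESeq2, the tool named in the study's methods, called Mobp (adjusted p = 0.0114) and Cnp (adjusted p = 0.0264) lower. It called 5.04% of the genes to which it gave an adjusted p, counting both directions. Without the filter on low counts edgeR called Mobp, Mag and Cnp, beside 3.20% of genes, and limma-voom with sample quality weights called the same 3, beside 3.38%. Leaving out caffeine mouse 1 brought Mobp to an edgeR adjusted p of 0.023, beside 1.93% of genes called. Over all 18 alternatives the adjusted p ranged from 3.35e-05 to 0.868 for Mobp, from 0.00986 to 0.888 for Cnp and from 0.0394 to 0.888 for Mag.

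Differences in the lane 7 mice were larger than in the lane 6 mice for these genes. The log2 difference of mean levels was -0.55 on lane 6 and -1.65 on lane 7 for Mobp, -0.45 and -0.85 for Cnp, and -0.56 and -1.06 for Mag. Lane 7 held 1 mouse per group, so its values have no replicate. In each lane 8 of the 9 genes were lower with caffeine, the exception being Cldn11 on lane 6 and Opalin on lane 7.

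The other 6 genes had smaller or less certain estimates. The log2 fold change was -0.64 ± 0.32 (SE) for Mal, -0.40 ± 0.27 for Mog, -0.28 ± 0.30 for Opalin, -0.25 ± 0.14 for Mbp, -0.14 ± 0.21 for Ermn and 0.05 ± 0.36 for Cldn11, with edgeR adjusted p from 0.341 to 0.962. For Mbp, the gene with the most counts, the lane 6 difference was -0.09 and the lane 7 difference -0.58.

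**Figure D4:**
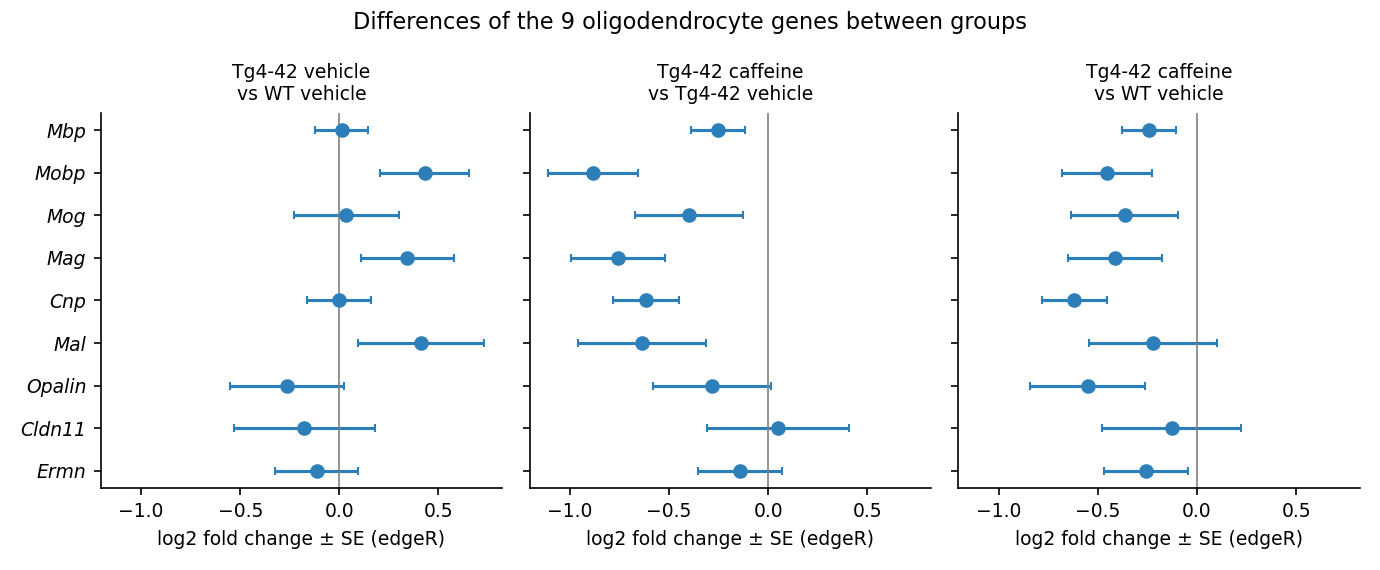
Log2 fold change ± SE (x axis, edgeR) of the 9 genes in the 3 comparisons, each point a gene estimated from 3 against 3 mice. In the middle panel, caffeine against vehicle in Tg4-42 mice, 8 of 9 points lie left of 0, with Mobp the lowest at -0.88 and Cldn11 at 0.05.

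The comparison of Tg4-42 caffeine with WT vehicle mice shares the caffeine mice with the previous one and is no independent repeat of it. All 9 estimates were lower in the caffeine mice, with a median log2 fold change of -0.36 beside -0.01 over all tested genes. In edgeR 0 of 9 passed the adjusted threshold (0.415% of all tested genes did), and 1 of 9, Cnp, was lower at an unadjusted p under 0.05 (8.65% of all tested genes were). Cnp, Opalin and Ermn were lower without overlap, 3 of 9 beside 9.67% of all tested genes.

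Cnp stood at a log2 fold change of -0.62 ± 0.17 (SE) against WT with an edgeR adjusted p of 0.0973. DESeq2 called it (adjusted p = 0.0268, with 3.83% of genes called), as did edgeR without the filter (2.79% called), and limma-voom called none of the 9. Mobp was at -0.45 ± 0.23, Opalin at -0.55 ± 0.29 and Mbp at -0.24 ± 0.14, with edgeR adjusted p of 0.363, 0.380 and 0.412. With the lane 6 mice alone, a fit chosen after seeing the data, the median of the 9 was -0.07 in place of -0.36.

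The proportions among the 9 genes also differed between mice. Mobp held 19.6, 20.7 and 24.9 counts per 100 counts of Mbp in the WT mice, 29.8, 27.2 and 30.9 in the Tg4-42 vehicle mice and 22.5, 18.7 and 14.5 in the Tg4-42 caffeine mice. The Tg4-42 vehicle mice were above all other mice in this ratio. Cnp held 28.1 ± 0.322 counts per 100 of Mbp (SD, n = 3) in WT, 27.6 ± 4.06 in Tg4-42 vehicle and 21.8 ± 1.28 in Tg4-42 caffeine mice. Here every caffeine mouse was below every mouse of both vehicle groups, but caffeine mouse 3 (23.24) and Tg4-42 vehicle mouse 1 (23.36) were nearly equal. These ratios were chosen after the levels had been seen and were not tested.

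The 3 genes that separated the caffeine from the Tg4-42 vehicle mice are shown with the stretch before their start, since SOX10, the SOX factor of the oligodendrocyte lineage, is known to act on myelin genes. The windows are the 250 bases before the RefSeq start (GRCm38.p6), of which the part before the start of the annotated gene is printed 5′ to 3′ on the gene's strand, and capitals mark ACAAAG or its reverse complement CTTTGT, the core letters that SOX factors bind. The windows were chr9:120149492-120149741 (+) for Mobp, chr11:100574689-100574938 (+) for Cnp and chr7:30914864-30915113 (-) for Mag.
Mobp: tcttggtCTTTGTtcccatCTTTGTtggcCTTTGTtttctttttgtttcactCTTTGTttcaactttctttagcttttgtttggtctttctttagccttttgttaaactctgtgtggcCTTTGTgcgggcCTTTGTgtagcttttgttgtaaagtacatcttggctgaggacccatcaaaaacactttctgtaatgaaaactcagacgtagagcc
Cnp: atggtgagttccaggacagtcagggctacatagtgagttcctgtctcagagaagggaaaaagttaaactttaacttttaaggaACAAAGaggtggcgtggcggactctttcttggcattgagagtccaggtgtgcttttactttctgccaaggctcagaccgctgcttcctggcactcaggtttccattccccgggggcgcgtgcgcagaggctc
Mag: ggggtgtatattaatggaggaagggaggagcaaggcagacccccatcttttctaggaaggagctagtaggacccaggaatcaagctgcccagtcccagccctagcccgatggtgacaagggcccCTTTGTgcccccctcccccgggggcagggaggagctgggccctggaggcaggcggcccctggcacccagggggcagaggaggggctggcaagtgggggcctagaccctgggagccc
Mobp held 6 such cores, more than any other of the 32851 promoters in the table, in a window that was 43.6% T (0.417% of promoters held as much). Cnp, Mag and Opalin held 1 each, which 16.5% of all promoters reach or exceed, and Mog, Mal, Cldn11 and Ermn held 0. The E-box letters CAGCTG, which read the same on both strands, were in 0 of the 8 windows and in 13% of all promoters. Mbp was not in the table. A match of letters is a description and not a bound site, and the 3 genes shown did not share a number of cores.

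The genes lie on separate chromosomes except for a pair. Mbp (ENSMUSG00000041607) is on chromosome 18. In GRCm38, Mobp (ENSMUSG00000032517) lies at chr9:120149707-120181484, Cnp (ENSMUSG00000006782) at chr11:100574904-100591729, Mag (ENSMUSG00000036634) at chr7:30899176-30914873, Mog (ENSMUSG00000076439) at chr17:37010743-37023398, Opalin (ENSMUSG00000050121) at chr19:41061710-41077113 and Cldn11 (ENSMUSG00000037625) at chr3:31149920-31164324. Mal (ENSMUSG00000027375) and Ermn (ENSMUSG00000026830) are both on chromosome 2, at chr2:127633226-127656695 and chr2:58045113-58052864. Exons of 3 of the 9 overlapped exons of another gene, 79 bases of Mobp with Gm38642 on the same strand, 154 bases of Cnp with Dnajc7 and 237 bases of Ermn with Galnt5 on the opposite strand. The library kit does not mark strand, so reads in these stretches cannot be assigned to either gene, and the stretches are short beside the 6849, 3639 and 3635 exon bases of Mobp, Cnp and Ermn.

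Over single mice, most of the 9 genes varied together with Mbp. The share of all tested genes with as high an r with Mbp was not computed. On log2(CPM + 0.5) over 9 mice, Pearson's r with Mbp was 0.911 for Mog, 0.899 for Mag, 0.896 for Mobp, 0.882 for Cnp and 0.748 for Mal, with Spearman's rho of 0.850, 0.833, 0.850, 0.817 and 0.783. The exact permutation p adjusted over 8 relations was 0.00378 for Mog, Mag and Mobp, 0.00498 for Cnp and 0.0333 for Mal on Pearson's r, and 0.0215 for the first 4 and 0.0276 for Mal on Spearman's rho. Without the 2 mice farthest from the median of Mbp, Tg4-42 vehicle mouse 3 and caffeine mouse 3, r was 0.935, 0.832, 0.726, 0.826 and 0.817 in the same order of genes.

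The relation was also present inside groups and on lane 6. Taken as deviations from the group means, r was 0.898 for Mog, 0.932 for Mag, 0.936 for Mobp, 0.828 for Cnp and 0.746 for Mal. Over the 6 lane 6 mice it was 0.912, 0.781, 0.654, 0.780 and 0.891, and lane 7 held too few mice for a value. These genes share the library and its scaling with Mbp, and the mice come from 3 groups.

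Cldn11, Ermn and Opalin did not pass. Pearson's r with Mbp was 0.528, 0.492 and 0.278 and Spearman's rho 0.583, 0.433 and 0.25, with exact permutation p adjusted over the 8 relations of 0.193, 0.203 and 0.474 on r and 0.144, 0.286 and 0.521 on rho. Without the same 2 mice r was 0.657, 0.538 and 0.544. As deviations from the group means, r was 0.700 for Cldn11, 0.330 for Ermn and -0.20 for Opalin, and over the lane 6 mice 0.832, 0.469 and 0.434. Opalin and Cldn11 were the genes with the fewest counts. Over all 36 pairs of the 9 genes the median r was 0.63, from 0.04 to 0.94.

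**Figure D5:**
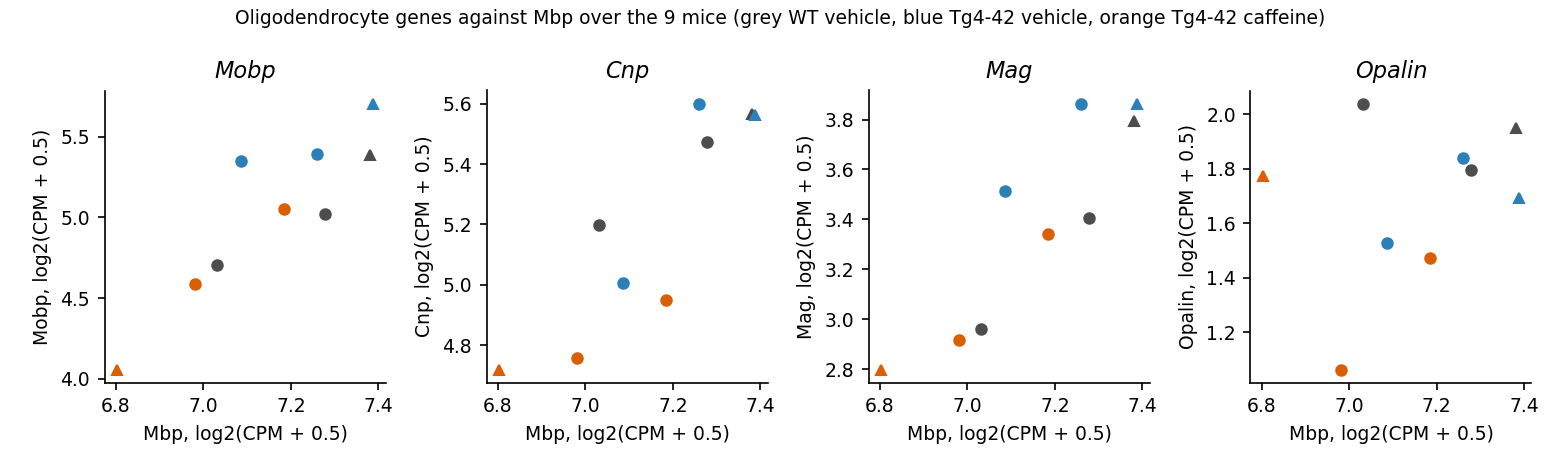
Mobp, Cnp, Mag and Opalin (y axes, log2(CPM + 0.5)) against Mbp (x axis, same scale), each point a mouse, circles lane 6 and triangles lane 7. The first 3 panels show mice low in Mbp as low in the other gene (r = 0.896, 0.882 and 0.899), and the Opalin panel shows little order (r = 0.278).

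Genes outside the 9 whose pattern over the 9 mice was most like theirs were ranked by Pearson's r with the mean standardized level of the 9, among 17352 tested genes. Among the 10 highest were Impg2 (r = 0.973), Rtn3 (0.959), Olig1 (0.955), Tbl2 and Lman2 (0.95), Sema4c and Rnft2 (0.949) and Ero1l (0.948). Olig1 is a transcription factor of the oligodendrocyte lineage, and Rtn3, a reticulon of the endoplasmic reticulum, stood at 977.8 to 1533 CPM, far above the 9 genes. Median r was 0.714 over the microglia markers, 0.630 over the astrocyte markers, 0.543 over the other mature oligodendrocyte and myelin genes, 0.378 over the precursor markers, 0.296 over the neuron markers, -0.05 over the lineage transcription factors, -0.14 over the endothelial and mural markers and 0.02 over all tested genes. Of the 17352 genes, 407 had an r above 0.8. These values are a description over 9 mice.

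Olig1, the highest of the 8 lineage transcription factors tested in this ranking, stood at 2.35, 3.85 and 4.72 CPM in WT, 2.92, 4.94 and 4.90 CPM in Tg4-42 vehicle and 2.79, 2.49 and 1.999 CPM in Tg4-42 caffeine mice. Its lowest values were in caffeine mouse 3 and WT mouse 1. Of the other factors of that list, r was 0.755 for Sox8, 0.506 for Sox10, 0.198 for Nkx6-2, -0.30 for Myrf, -0.41 for Zfp536, -0.45 for Tcf7l2 and -0.69 for St18.

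Other genes of mature oligodendrocytes pointed the same way as the 9. Of 37 such genes 35 were tested. Between caffeine and vehicle in Tg4-42 mice 32 of 35 were estimated lower, where 51.5% of all tested genes were. At an unadjusted p under 0.05 in edgeR 11 were lower, beside 9.82% of all tested genes, and 0 higher. The median log2 fold change of the 35 was -0.44. edgeR called 1 of them lower, beside 116 of all 17361 tested genes. That gene was Omg, a myelin glycoprotein that neurons also make, with a log2 fold change of -0.78 ± 0.14 (SE) and an adjusted p of 0.0385. Ugt8a, the enzyme of galactosylceramide synthesis, stood at -1.11 ± 0.30 (edgeR adjusted p = 0.0885).

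Estimates of the astrocyte and microglia lists were also mostly lower in the same comparison. Of 13 astrocyte markers 12 were estimated lower and 7 were lower at an unadjusted p under 0.05 in edgeR. Of 11 microglia markers tested 11 were estimated lower and 4 were lower at an unadjusted p under 0.05. Over all tested genes these shares were 51.5% and 9.82%. In both lists 0 genes were called. Their median log2 fold changes were -0.63 and -0.61, compared with -0.40 for the 9 oligodendrocyte genes and -0.07 for the 14 neuron markers. Of the neuron markers 5 were lower and 1, Rbfox3, which encodes NeuN, was higher at an unadjusted p under 0.05, and 0 were called. The share of these lists in the values of the 9 genes was not tested.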

How the data were processed

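RNA from NeuN-sorted hippocampal nuclei was amplified with the SMART-Seq kit for low input, made into libraries with Nextera XT and read as single ends. The authors aligned the reads to mm10 with STAR, and deposited the featureCounts counts of reads on the exons of each gene, raw and per mouse. Versions are not given in the sources used here.

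Vehicle groups follow the genotype labels and the study's methods. Identifiers were matched to GENCODE vM21, and 360 of 48709 had no symbol. Counts were filtered (edgeR filterByExpr, minimum count 10, total 15), TMM scaled and tested with edgeR 4.0.16 quasi-likelihood in R 4.3.3 over all 9 libraries, with Benjamini-Hochberg adjustment over 17361 genes at 0.05. DESeq2 1.42.0 and limma 3.58.1 were alternatives, besides other scalings, filters, covariates, thinning and single mice left out. Exact permutation tests (scipy 1.17.1) used log2(CPM + 0.5). The code was tested on simulated data. Named genes were the 9, the highest genes of each marker list and the 10 most alike in pattern, of which some are not reported here; Ugt8a, Rbfox3, Cldn5, Flt1, Cdh5, Tcf7l2, Sox10 and Olig2 were named after their values were seen. The 9 genes and all lists were chosen with earlier results of these data known.

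Replicate numbers follow accession order. Deviations of mice with the same number correlated at -0.17 to 0.19, so the numbers were not taken as pairs.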

Additional observations from a re-analysis of the deposited data

How the results depend on the processing

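The count of the 9 genes called stayed at 0 under all 18 alternatives between Tg4-42 vehicle and WT. Between caffeine and vehicle in Tg4-42 mice it was 0 under 14 of 18. It was 2 with DESeq2, 3 when genes of low counts were kept and 3 with limma-voom, and 0 to 1 with single mice left out, where 1 came without caffeine mouse 1. Between caffeine and WT it was 0 under 16 of 18, 1 with DESeq2 and 1 when genes of low counts were kept, and 0 with each mouse left out. Keeping genes of low counts raised the number tested from 17361 to 30820, a mean of at least 50 counts left 7 of the 9 genes tested, and the cause of the changes was not tested. The median log2 fold change of the 9 ranged from -0.11 to 0.16, from -0.62 to -0.24 and from -0.54 to -0.07 in these 3 comparisons. A replicate block changed no call among the 9 (0 called in each comparison), and moved the calls over all genes from 153 to 187 between caffeine and vehicle in Tg4-42 mice. With the lane as a covariate 9 genes were called in that comparison, and with single mice left out 0 to 341 were, the fewest without vehicle mouse 3 or caffeine mouse 3.

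Without Mbp the summed level was 118.7, 135.3 and 86.7 CPM in WT, Tg4-42 vehicle and Tg4-42 caffeine mice. Small estimates changed direction. Between Tg4-42 vehicle and WT, Mbp was at -0.01 with limma-voom and at -0.08 to 0.09 with single mice left out, Mog at -0.15 to 0.23 and Cldn11 at -0.42 to 0.20. Between caffeine and vehicle in Tg4-42 mice, Cldn11 was at -0.03 with limma-voom and at -0.14 to 0.16 with single mice left out, and Ermn at -0.24 to 0.07. Between caffeine and WT, Mal was at 0.01 on lane 6 alone and Cldn11 at -0.37 to 0.25 with single mice left out. Opalin and Cldn11 held at most 53 counts in any library, so depth limits what can be said of them.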

Other observations

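Transcription factors listed for the oligodendrocyte lineage did not share one direction. Of 11 lineage transcription factors 8 were tested. Between caffeine and vehicle in Tg4-42 mice 4 were estimated higher and 4 lower, with 0 called by edgeR. At an unadjusted p under 0.05 in edgeR 1 was lower and 1 higher. Over all tested genes 9.82% were lower and 1241 of 17361 higher at that threshold. St18 stood at a log2 fold change of 0.61 ± 0.18 (SE, edgeR adjusted p = 0.114) and Olig1 at -0.82 ± 0.31 (edgeR adjusted p = 0.199). Myrf, the factor that switches on myelin genes, stood at 6.83 CPM ± 0.597 (SD, n = 3) in WT, 6.43 CPM ± 2.83 in Tg4-42 vehicle and 9.37 CPM ± 2.21 in Tg4-42 caffeine mice. The caffeine and Tg4-42 vehicle mice overlapped for Myrf, with a log2 fold change of 0.523 ± 0.275 (SE, edgeR adjusted p = 0.357). The list summed to 137.4, 144.2 and 165.5 CPM in these groups, most of it from St18, Zfp536 and Sox8. Sox10 and Olig2, which define the lineage, lay at 0.484 to 2.12 CPM and 0.147 to 0.964 CPM per mouse. St18 and Zfp536 lay far above them, at 33.7 to 72.8 CPM and 38.0 to 64.2 CPM. Which cells carried St18 and Zfp536 was not tested, so the sum of the list is not a level of the lineage.

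Of the 10 precursor markers 8 were estimated lower with caffeine in Tg4-42 mice, where 51.5% of all tested genes were. At an unadjusted p under 0.05 in edgeR 2 were lower, beside 9.82% of all tested genes, and 0 were called. Vcan, a matrix proteoglycan, was the highest of the list at 7.90 to 17.5 CPM, with a log2 fold change of 0.09 ± 0.25 (SE). Pdgfra, the growth factor receptor of precursors, stood at 0.314 CPM in WT mouse 1 and 0.866 CPM in Tg4-42 vehicle mouse 1, below the 1.04 to 2.71 CPM of the other mice.

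Single mice stood apart in single genes. Tcf7l2, a factor of oligodendrocyte maturation that thalamic neurons also express, was at 13.3 CPM in WT mouse 1 and at 0.253 to 1.38 CPM in the other 8 mice. Enpp2, made by oligodendrocytes and by the choroid plexus, was at 241.5 CPM in WT mouse 3 and 222.7 CPM in Tg4-42 vehicle mouse 3, the lane 7 mice of their groups, and at 43.1 CPM in caffeine mouse 3, the lowest of the series. Its log2 fold change between caffeine and vehicle in Tg4-42 mice was -1.19 ± 0.54 (SE, edgeR adjusted p = 0.336).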
